A study of Mus musculus with 16 samples.

Results

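The swimming response of chromatin in heart muscle cells without desmin was described from a pair of H3K27Ac peak lists, one of Des-/- cardiomyocytes in the basal state and one of Des-/- cardiomyocytes after swimming. The lists held 16638 basal and 10407 swim peaks, together 27045 of the 53959 H3K27Ac peaks in the 4 lists of the series. Peaks of the lists that overlapped by at least 1 bp were taken as common, and all others as condition-only. A gene was described by its highest peak and its number of peaks in each list. Cardiomyocytes were isolated by enzymatic perfusion of hearts of 3-month-old mice that had intact desmin (Des+/+) or carried no desmin (Des-/-), either unstressed or after a swimming exercise. The Des+/+ lists, with 15757 basal and 11157 swim peaks, serve below only for comparison. Each list came from 1 library, and chromatin of several mice was pooled for it. There is therefore no replicate check, and none of the differences could be tested over samples. Intervals are 95% intervals for counting error only. By the study's account the Des-/- heart has dilated cardiomyopathy at this age, so the basal library is one of a diseased heart. The perfused isolate can also hold other cells of the heart.

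Acetylation of lysine 27 on histone H3 is placed by p300 and CBP at promoters and enhancers that are in use, and in a heart muscle cell it is heavy at genes of the sarcomere, of energy supply and of calcium cycling. Desmin is the intermediate filament of muscle. It links the Z-discs, at which the thin filaments of neighbouring sarcomeres are anchored, to the intercalated discs, the mitochondria and the nucleus. Swimming raises the load on the heart and is used as an exercise stress.

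Peak height, the largest number of overlapping reads in a peak, had a median of 23 reads in both Des-/- lists, and no listed peak was lower than 15 reads. The input height, the same measure in chromatin sequenced without precipitation, averaged 2.80 reads under the basal and 5.48 under the swim peaks of Des-/-, and 2.96 and 3.06 under those of Des+/+. An input of 10 reads or more lay under 41 basal and 967 swim peaks of Des-/-, and 915 of these 967 swim peaks were at promoters, within 3 kb of a transcription start. Gene heights below were therefore taken from peaks with an input under 10 reads unless said otherwise. Read depth was seen only through the heights. A lower height in such bulk chromatin can mean fewer cells of a type or less of the mark per cell, and these cannot be told apart. At the Des gene itself the highest Des-/- peaks had 46 reads before and 37 after swimming, and the Des+/+ peaks 30 and 24. Acetylation at Des does not check the genotype, since a deleted gene can keep its promoter.

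In Des-/-, 7456 of 16638 basal peaks (44.8%, 44.1 to 45.6) had no swim partner, and 654 of 10407 swim peaks (6.28%, 5.83 to 6.77) had no basal partner. In Des+/+ the basal count was 6149 of 15757 (39.0%). The Des-/- peaks without a swim partner were low, with a median of 18 reads against 32 reads for the others, and 59.8% of them were at promoters against 80.4%. The share without a partner was 37.7% among promoter peaks, 63.6% among other peaks within genes and 60.3% among intergenic peaks.

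The share with a partner climbed with height. At a basal height of 15 to 17 reads, 17.2% of Des-/- peaks had a swim partner. It was 51.6% at 21 to 25 reads, 87.1% at 31 to 40 reads and 99.3% above 60 reads. Des+/+ peaks stood above these values in every height class, at 23.5%, 60.6%, 94.1% and 100% in the same order. Within a height class, places differed less: at 21 to 25 reads, 50.6% of promoter, 52.2% of genic and 57.0% of intergenic peaks of Des-/- had a partner.

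Base composition and input also moved with the share among promoter peaks of middling height in Des-/-. Among promoter peaks 21 to 30 reads high, 306 of 420 with under 50% G and C at the summit had a swim partner (72.9%, 68.4 to 76.9). Of those with 70% or more, 438 of 880 did (49.8%, 46.5 to 53.1). The same classes of Des+/+ gave 69.5% and 71.3%, so no such slope was seen there. Over promoter peaks of all heights the Des-/- peaks with a partner were the richer ones, with a median of 65.3% G and C against 61.3%. By input in the basal library, the Des-/- share was 62.4% at 0 to 2 reads and 48.7% at 5 to 9 reads, against 69.6% and 66.3% in Des+/+. Whether the higher input of the Des-/- swim library lies behind this was not tested.

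**Figure D1:**
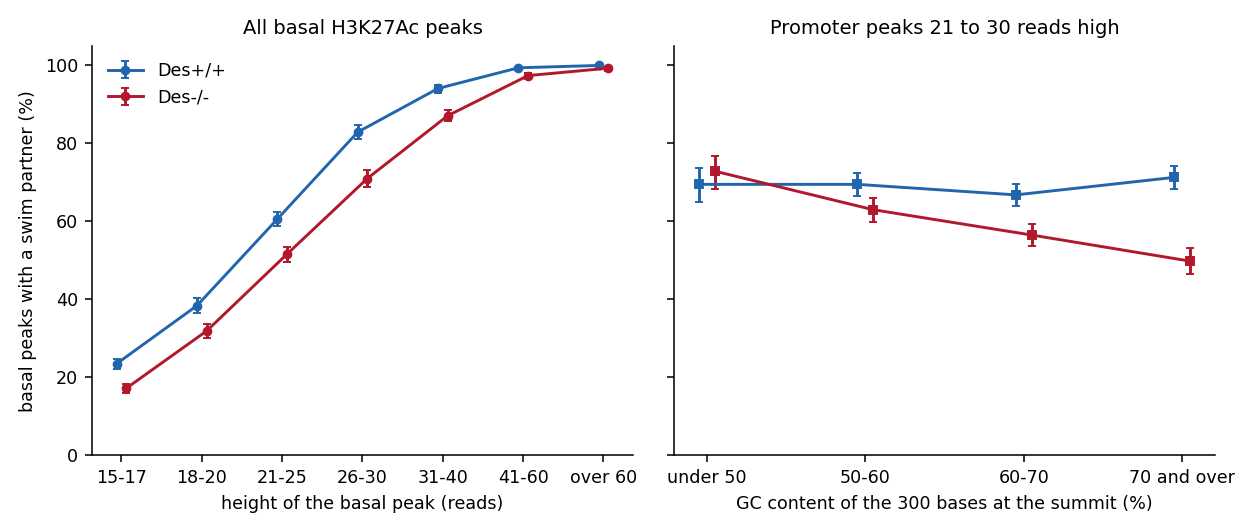
Percent of basal H3K27Ac peaks that overlapped a swim peak, with 95% Wilson intervals, against peak height in reads (left, all peaks) and against the percent of G and C in the 300 bases at the summit (right, promoter peaks 21 to 30 reads high). Both genotypes climb with height, from 17.2% to 99.3% in Des-/-, and the Des-/- line alone falls from 72.9% to 49.8% as G and C content grows.

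Genes of the contractile apparatus held few of their basal peaks after swimming in Des-/-. The thick filament and titin, thin filament, Z-disc and cardiomyocyte marker lists were read together as 59 genes, of which 49 had a Des-/- basal peak. Of their 159 basal peaks, 53 had a swim partner (33.3%, 26.5 to 41), against 55.2% of the peaks of all genes. In Des+/+ it was 107 of 167 (64.1%, 56.6 to 71.0), against 61.0% of all. With equal numbers of the highest peaks in each list, the Des-/- share of the group was 61.8% of 76 peaks, where 24.5% of all basal peaks had no partner. The list thus lay below all genes in Des-/- and within counting error of them in Des+/+. The difference between the genotypes was not tested. The peaks of these genes numbered 159 in basal and 63 in swim of Des-/-, and 167 and 127 in Des+/+. Of the 49 genes, 43 had fewer peaks in Des-/- swim than in basal, 4 as many and 2 more, and 19 had no swim peak. In Des+/+ 28 of 49 had fewer, 8 had more and 7 had none.

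The lists within the group had low shares in Des-/-, of which that of the thin filament was within counting error of all genes. Partners were found for 8 of 32 peaks of the thick filament and titin list (25.0%), for 12 of 27 of the thin filament list (44.4%, 27.6 to 62.7), for 22 of 74 of the Z-disc list (29.7%) and for 18 of 55 of the cardiomyocyte marker list (32.7%). The Des+/+ shares were 53.3%, 62.5%, 66.7% and 64.6%. The lists share some genes. Promoter peaks of the 59 genes had a partner in 38.5% of cases and those outside promoters in 25.4%, where all genes gave 62.3% and 37.5%.

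Actn2 encodes alpha-actinin, which crosslinks the thin filaments at the Z-disc. It had 6 peaks in Des-/- basal, the highest of 29 reads, and no swim peak. In Des+/+ it had 8 peaks of up to 25 reads in basal and 4 of up to 24 reads in swim. Myh7, the slow myosin heavy chain that returns in failing hearts, had 1 peak of 25 reads in Des-/- basal and none in swim, against 18 and 17 reads in Des+/+. After swimming both genes were thus listed only with desmin. A peak that is not listed may still carry reads below the minimum of 15, and the Myh7 peak of Des+/+ swim stood just above it. The sequence under the Myh7 peak is shown because its acetylation was listed in Des-/- basal and not in Des-/- swim. It is chr14:55004244-55004543, intergenic and within a peak 9501 bases upstream of the start to which it was assigned. All sequences here are the plus strand of GRCm38 (RefSeq), 300 bases with no annotated exon base. Capitals mark matches to the motifs searched, on either strand.
Myh7: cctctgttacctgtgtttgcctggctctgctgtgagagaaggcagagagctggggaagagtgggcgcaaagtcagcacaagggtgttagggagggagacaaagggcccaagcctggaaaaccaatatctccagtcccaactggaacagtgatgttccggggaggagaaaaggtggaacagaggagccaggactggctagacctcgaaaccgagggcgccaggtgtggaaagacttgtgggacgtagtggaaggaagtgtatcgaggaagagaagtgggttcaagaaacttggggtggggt
It holds none of the motifs searched. Among Des-/- basal peaks outside promoters, the letters of a GATA match (AGATAAG or its reverse complement CTTATCT) occurred in 3.38% of those with a swim partner and 4.47% of those without, and among promoter peaks in 1.27% and 1.61%. A match is a description of the letters and not a bound site.

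Ttn, the giant spring of the sarcomere, had a highest peak of 37 reads in Des-/- basal and 15 in swim, and its 4 peaks became 1. In Des+/+ it had 28 and 24 reads, with 3 peaks in each list. Myh6, the fast myosin heavy chain of the adult mouse ventricle, had 44 and 22 reads in Des-/- and 46 and 37 in Des+/+. At Myh6 a higher swim peak of 26 reads in the same basal peak was assigned to Mhrt, a noncoding RNA gene inside the locus. Actc1, cardiac actin, had 27 reads in Des-/- basal and no swim peak, against 23 and 27 reads in Des+/+. Synpo2l, a Z-disc protein, had 28 reads and no swim peak, against 35 and 24. These genes all stood lower, or were not listed, in Des-/- swim.

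Ckm, muscle creatine kinase, had 22 reads in Des-/- basal and no swim peak, against 25 and 15 reads in Des+/+. Cryab, a small heat shock protein that binds desmin, had 26 reads and no swim peak, against 35 and 23. The exceptions ran both ways. Myl4, the atrial light chain, had 65 and 41 reads in Des-/- and 55 reads and no swim peak in Des+/+. Xirp1, an actin-binding protein of the intercalated disc, was the gene of the group whose highest peak stood above basal in Des-/- swim, at 23 and 25 reads. Bag3, a chaperone partner at the Z-disc, had 116 and 92 reads, and Atp2a2, the calcium pump of the sarcoplasmic reticulum, had 61 and 56 reads with 8 and 7 peaks. The high peaks of the group were thus still listed: all 24 of its Des-/- basal peaks above 30 reads had a swim partner.

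**Figure D2:**
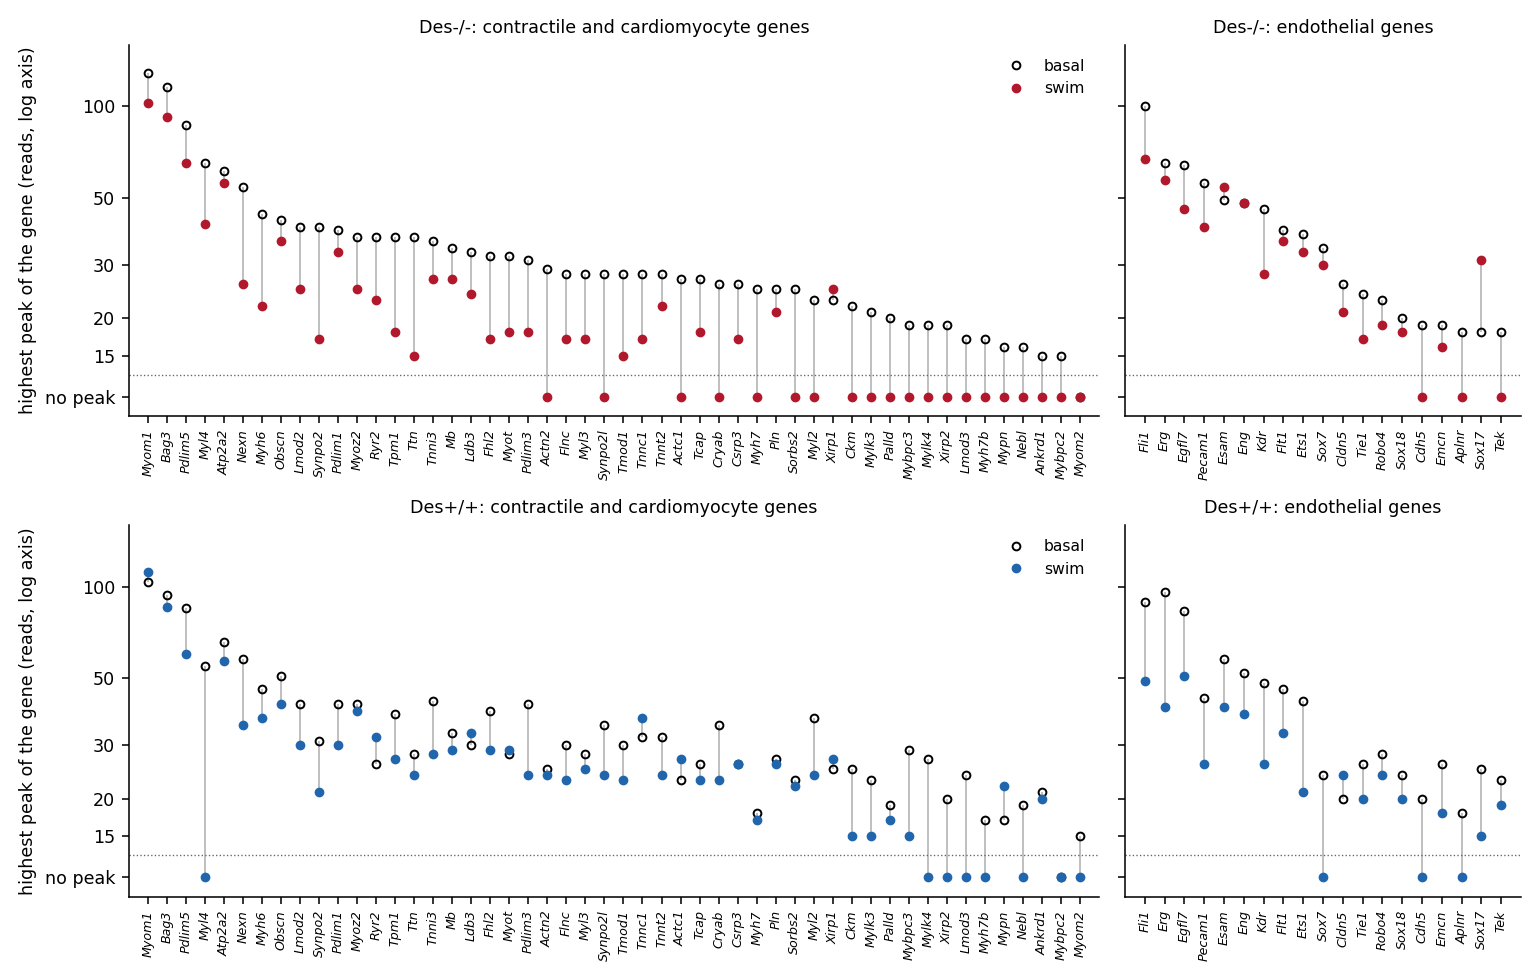
Highest H3K27Ac peak of each contractile or cardiomyocyte gene (left) and endothelial gene (right) in reads on a log axis, in basal (open) and swim (filled) libraries of Des-/- (top) and Des+/+ (bottom), from 1 library each and with no limit on input; points on the lowest line are genes with no listed peak. In the left panels 19 genes with a basal peak sit on that line after swimming in Des-/- and 7 in Des+/+.

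Where a contractile gene had a peak in both Des-/- lists, its height could be set against the median swim/basal ratio of all genes. With no limit on input, the median of the contractile and cardiomyocyte genes was 0.872 times the median of all genes, and it was 1.20 times in Des+/+. With the limit of 10 on input, 0 of 29 genes stood 1.5-fold above the median and 8 stood 1.5-fold below it, where 4.70% and 5.40% of all genes did. In Des+/+ 7 of 42 stood above and 0 below. With no limit the lower genes of Des-/- were Ttn, Tpm1, Nexn and Synpo2. Tpm1, tropomyosin, had 37 reads in basal and 18 in swim (38 and 27 in Des+/+). Nexn, a Z-disc protein, had 54 and 26 reads (58 and 35 in Des+/+).

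The group was also set against peaks of like height and composition. Contractile summits had a median of 51.0% G and C against 58.3% for all Des-/- basal peaks. Among Des-/- peaks with under 60% G and C and 15 to 20 reads high, 6 of 86 contractile peaks had a swim partner (6.98%, 3.24 to 14.4), against 23.3% of all such peaks. In Des+/+ it was 33 of 84 (39.3%, 29.5 to 50), against 30.2%. At 21 to 30 reads the Des-/- counts were 20 of 40 (50%, 35.2 to 64.8) against 64.5% of all, and the Des+/+ counts 34 of 40 (85.0%, 70.9 to 92.9) against 70.1%. The group lay below like peaks in Des-/- and above them in Des+/+ in both height classes. It was within counting error of them at 21 to 30 reads in Des-/- and at 15 to 20 reads in Des+/+. The input under contractile peaks of Des-/- averaged 2.23 reads in basal and 3.81 in swim, and in Des+/+ 2.29 and 2.28. Under Des-/- swim peaks it was 3.49 for endothelial genes and 5.48 for all. Input was read only under listed peaks, so it is not known where a swim peak was not listed. Its part was not tested.

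**Figure D3:**
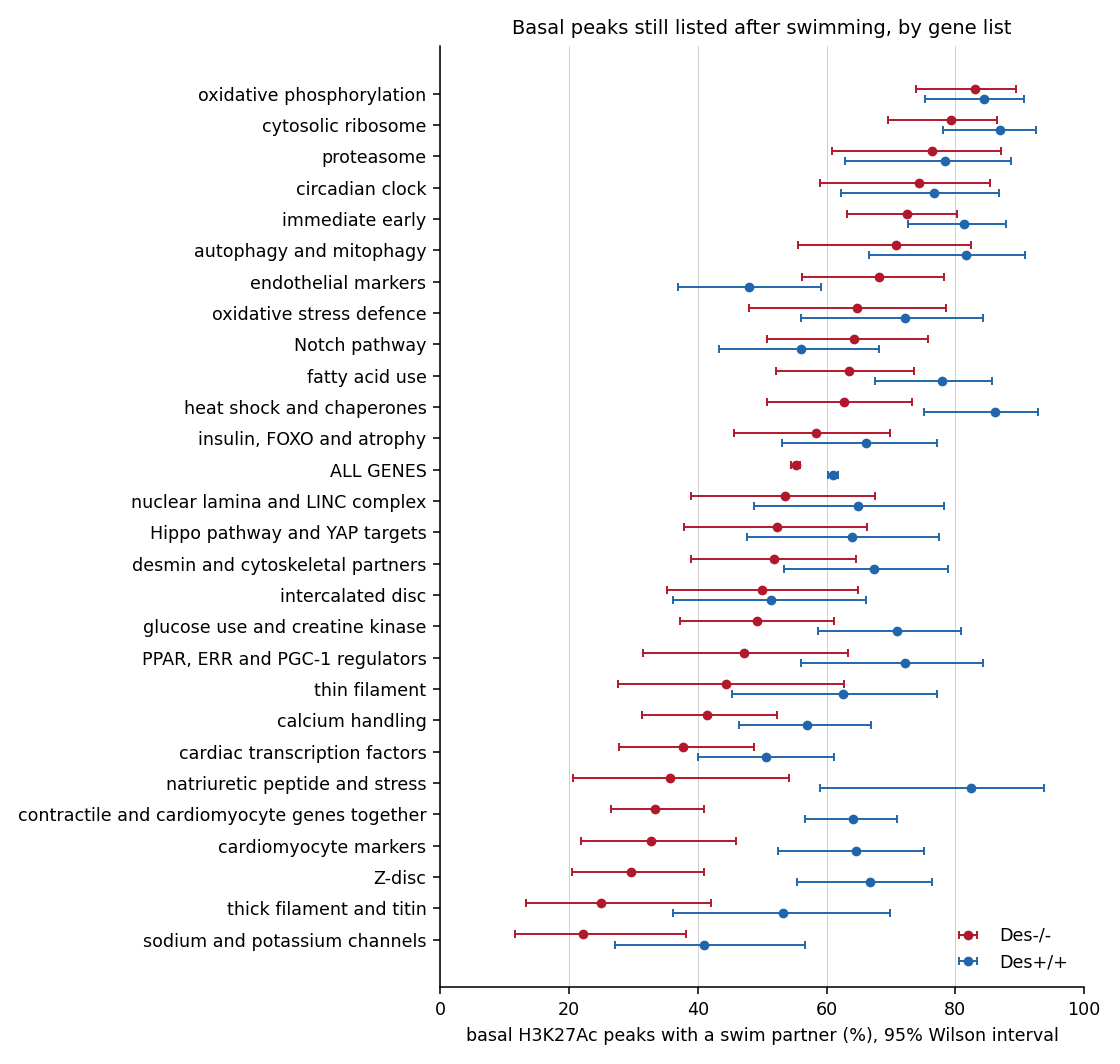
Percent of basal H3K27Ac peaks of each gene list that overlapped a swim peak, with 95% Wilson intervals for counting error, in Des-/- (red) and Des+/+ (blue). Lists differ in peak height, and the shares are not matched for it. In Des-/- the lists span 22.2% for sodium and potassium channels to 83.0% for oxidative phosphorylation around 55.2% for all genes, and endothelial markers stand higher in Des-/- (68.2%) than in Des+/+ (47.9%) while the contractile lists stand lower.

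Without matching on height, other lists of the working heart muscle cell also lay below the 55.2% of all genes in Des-/-. In Des+/+ the sodium and potassium channel list lay below the 61.0% of all genes too. The calcium handling (46.4 to 66.9) and cardiac transcription factor lists (40.1 to 61.1) were within counting error of it there. The natriuretic peptide and stress list had partners for 10 of 28 basal peaks in Des-/- (35.7%), against 14 of 17 in Des+/+ (82.4%). Sodium and potassium channel genes, which shape the action potential, had partners for 8 of 36 basal peaks (22.2%), against 41% in Des+/+. Calcium handling genes had 34 of 82 (41.5%) against 57.0%, and cardiac transcription factor genes 29 of 77 (37.7%) against 50.6%. Kcnj2, the inward rectifier that holds the resting potential, had 22 reads in Des-/- basal and no swim peak, and in Des+/+ 18 reads and no swim peak. Casq2, the calcium store protein, had 18 reads and no swim peak in Des-/-, while Des+/+ listed it only in swim, at 16 reads. Of the factors, Gata4 had 11 peaks of up to 42 reads in Des-/- basal and 6 of up to 26 in swim, against 8 and 9 peaks of up to 37 and 31 reads in Des+/+. Mef2c had 57 and 27 reads in Des-/-, below the 1.5-fold line, and 50 and 31 in Des+/+. Cacna1c, the L-type calcium channel, had 30 reads in both Des-/- lists, and Itpr2, an IP3 receptor, had 25 and 30 reads and stood above the 1.5-fold line. So the low shares of these lists did not hold for each gene in them.

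Before matching on height, subunits of the respiratory chain stood above all genes in Des-/-. Lists of energy regulators and fuel use were within counting error of the 55.2% of all genes. The PPAR, ERR and PGC-1 list had partners for 16 of 34 basal peaks (47.1%, 31.5 to 63.3), against 72.2% in Des+/+. The glucose use and creatine kinase list had 31 of 63 (49.2%, 37.3 to 61.2), against 71.0%, and the fatty acid list 47 of 74 (63.5%, 52.1 to 73.6), against 77.9%. Ppargc1b, a coactivator of mitochondrial genes, had 38 reads in Des-/- basal and no swim peak, against 33 and 31 reads in Des+/+. Ppargc1a, its relative PGC-1 alpha, had 18 reads and no swim peak, against 18 and 15. Both coactivators were thus unlisted in Des-/- swim and listed in the other 3 libraries. Esrra, a nuclear receptor that works with them, had 33 and 16 reads in Des-/- and 25 and 19 in Des+/+. Pparg went the other way, with 33 and 42 reads in Des-/- and 31 and 34 in Des+/+, as did Ucp2, a mitochondrial carrier, with 24 and 33 reads in Des-/- and 26 and 21 in Des+/+. Fabp3, the heart fatty acid binding protein, had 22 reads in Des-/- basal and no swim peak, against 31 and 27. Oxidative phosphorylation subunits had partners for 73 of 88 Des-/- basal peaks (83.0%) against 84.5% in Des+/+, and cytosolic ribosomal proteins for 69 of 87 (79.3%) against 86.9%. The Des-/- basal peaks of these lists were high, with medians of 36 and 37 reads against 23 for all genes. At 21 to 30 reads, 12 of 19 (63.2%) and 7 of 16 (43.8%) had a partner, against 59.0% of all such peaks. The median height ratios of the respiratory chain and ribosome lists were 0.989 and 0.998 times that of all genes in Des-/-.

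Nppb, which encodes the stress peptide BNP, had 4 peaks of up to 37 reads in Des-/- basal and no swim peak assigned to it, against 45 and 28 reads with 4 peaks in each list in Des+/+. The highest Des-/- peak, intergenic and 22068 bases upstream of its start, still overlapped a swim peak of 17 reads at chr4:147962987-147963589 that was assigned to 2510039O18Rik. Acetylation there was thus lower but not gone. This distal sequence, chr4:147963107-147963406, is shown as the one whose gene assignment, and not its listing, differed between the lists.
Nppb: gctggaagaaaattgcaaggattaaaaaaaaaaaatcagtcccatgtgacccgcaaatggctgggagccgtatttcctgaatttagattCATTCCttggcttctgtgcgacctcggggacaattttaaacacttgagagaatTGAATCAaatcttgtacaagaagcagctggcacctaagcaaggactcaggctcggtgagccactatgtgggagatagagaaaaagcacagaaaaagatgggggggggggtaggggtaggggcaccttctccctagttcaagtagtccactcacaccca
It holds an M-CAT match (CATTCC or GGAATG), the element of TEAD factors, and an AP-1 match (TGANTCA, its own reverse complement). M-CAT letters occurred in 16.5% of Des-/- basal peaks outside promoters with a swim partner and 18% of those without, and AP-1 letters in 9.04% and 9.38%. Neither share set the peaks without a partner apart from the others beyond counting error. Like assignments were seen at other genes. Txnip, a brake on glucose uptake, had a basal peak of 54 reads that overlapped a swim peak of 52 reads assigned to Gm15441, and Pfkm, muscle phosphofructokinase, had one of 45 reads that overlapped a swim peak of 36 reads assigned to Senp1.

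Endothelial genes held more of their peaks in Des-/- than in Des+/+. Of 20 endothelial markers, 19 had a peak. Partners were found for 45 of 66 Des-/- basal peaks (68.2%, 56.2 to 78.2) and 35 of 73 Des+/+ basal peaks (47.9%, 36.9 to 59.2). Endothelial genes had 66 and 61 peaks in Des-/- basal and swim, and 73 and 46 in Des+/+. Of the 19 genes, 7 had fewer peaks in Des-/- swim than in basal, 6 as many and 6 more. In Des+/+ 12 had fewer, 4 as many and 3 more, and 3 had no swim peak in each genotype. The shares for all genes were 55.2% and 61.0%. Swim-only peaks with an input under 10 numbered 11 in Des-/- and 2 in Des+/+, out of 633 and 929 over all genes. Among peaks under 60% G and C and 15 to 20 reads high, 17 of 37 had a partner in Des-/- (45.9%, 31 to 61.6) against 23.3% of all such peaks, and 6 of 35 in Des+/+ (17.1%, 8.1 to 32.7) against 30.2%. So at these heights in Des-/- the endothelial group lay above all such peaks and the contractile group below them. In Des+/+ both groups were within counting error of all such peaks. At 21 to 30 reads 11 of 11 endothelial peaks had a partner in Des-/- and 13 of 18 (72.2%) in Des+/+, the latter near the 70.1% of all such peaks. The difference between the genotypes was not tested.

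Fli1, an ETS factor of endothelium, had 8 peaks in Des-/- basal and 9 in swim, with highest peaks of 100 and 67 reads. In Des+/+ it had 9 and 4 peaks and 89 and 49 reads. Sox17, a factor of arterial endothelium, had 18 and 31 reads in Des-/- and 25 and 15 in Des+/+. Sox18, a factor of vessel and lymphatic growth, had 2 and 5 peaks in Des-/- and 3 and 1 in Des+/+. In all 3 genes the Des+/+ swim list held fewer peaks than its basal list. Several genes went against the group. Cdh5, the endothelial cadherin, had basal peaks of 19 reads without desmin and 20 with it, and no swim peak in either genotype. Tek had 18 reads and no swim peak in Des-/-, against 23 and 19 reads in Des+/+. Ets1 went from 12 to 6 peaks in Des-/- and from 10 to 6 in Des+/+, and Sox17 from 3 to 2 peaks in Des-/-. Of markers of other cells, 6 of 18 fibroblast, 4 of 12 mural and 2 of 16 leukocyte genes had a Des-/- peak. The fibroblast genes had 8 basal peaks and 1 swim peak. The part of the balance of heart muscle and endothelial cells in these results was not tested.

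Across all genes, 6107 of the 10268 genes with a Des-/- peak had one with an input under 10 in both lists. The median swim/basal ratio of their heights was 0.732. By the rule of 1.5-fold around that median, 287 genes (4.70%) were higher and 330 (5.40%) lower after swimming. In Des+/+ the same rule gave 290 (4.24%) and 211 (3.09%) of 6832 genes. The ratio itself fell with height, from 0.895 in the 611 lowest genes to 0.693 in the 611 highest. A gene enters it only if its swim peak reaches 15 reads.

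The genes farthest from the median rested on which peak was read. Of the 330 lower genes, 166 had a higher swim peak that the input limit had left out. Myom1, the M-band protein myomesin, had 129 reads in basal and 19 in swim, and its left-out swim peak of 103 reads, with an input above the limit, overlapped the basal one. Mir23a had 146 and 15 reads by the rule, and 146 and 115 reads at the same place. Hnrnpl and Zc3h4 stood at 134 and 15 and at 169 and 23 reads by the rule, and at 134 and 89 and at 169 and 131 at the same place. Of the 12 lower genes with the strongest call, which also include Rdm1, Mirlet7a-1, Dnajb5, Csnk1d, Ctdsp1, Lats2, C87436 and Lsm4, 0 were lower by 1.5-fold at the same place. Over all 330, 134 were also lower at the same place, 175 were within 1.5-fold and 21 had no overlapping swim peak.

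The higher genes had the same weakness where neighbours share a promoter. The gene 0610009L18Rik had 30 reads in basal and 112 in swim, but the swim peak lay over a basal peak of 145 reads of the region that it shares with Actg1. Tcta had 49 and 102 reads, and its swim peak lay over a basal peak of 138 reads shared with Rhoa. Of the 12 higher genes with the strongest call, Plekhb1 and Fgfr3 were also higher at the same place, 9 were not, and Vps45 had no basal peak there. The other 7 were Cdc26, Dclre1b, Scaf1, Nfib, Tuba1b, Acadsb and Sphk2. Of all 287, 174 were higher at the same place, 98 within 1.5-fold and 15 had no basal peak there.

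Overlapping peaks were therefore merged and compared as regions, with no limit on input. Of the regions described below, that of Dnajb1 had a swim input of 13 reads, Chchd2 12, and Fosb and Cwc22 10 each. Of 16816 Des-/- regions, 8706 were common to both lists, with a median ratio of 0.756 and a Spearman correlation of 0.849 between basal and swim heights over regions, which are not independent. By the 1.5-fold rule, 376 (4.32%) were higher and 264 (3.03%) lower. The counting interval of the ratio lay wholly above the median in 72 regions and wholly below it in 103, together 2.01% of all. Of the 72 higher regions, 60 were in both Des+/+ lists, with a median of 1.03 times the Des+/+ median against 1.86 times in Des-/-. Of the 103 lower ones, 102 were, at 0.867 and 0.592 times. The Des-/- values chose these regions, so the Des-/- figures are a description.

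**Figure D4:**
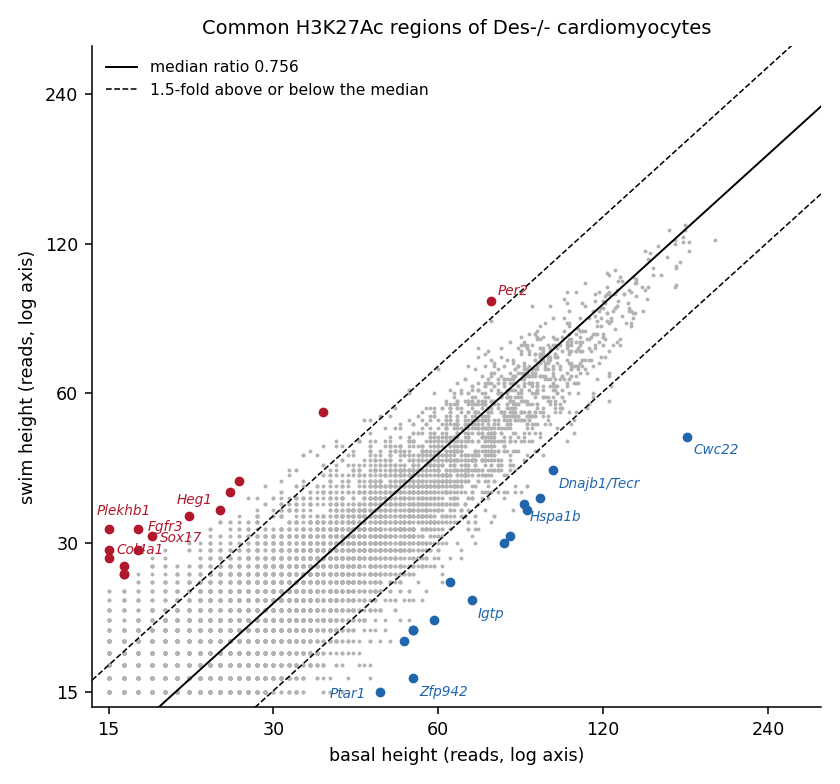
Swim against basal height in reads, both on log axes, of the 8706 regions common to the Des-/- lists, with the median ratio of 0.756 (solid) and 1.5-fold around it (dashed). Red and blue points are the regions whose counting interval lay farthest above and below the median, some with the gene of the nearest start, and no region is lower than 15 reads.

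Several of the higher regions lay outside promoters. Plekhb1, which encodes a pleckstrin homology protein, had 15 reads in basal and 32 in swim at a region assigned to it from 11685 bases upstream of the start (2.82 times the median, 1.48 to 5.61), at a place with no peak in either Des+/+ list. An intronic region of Col4a1, a collagen of vessel basement membrane, had 15 and 29 reads (2.56 times, 1.33 to 5.13), and Des+/+ had 20 reads in swim only. Heg1, a receptor needed for vessel and heart growth, had 21 and 34 reads at an intergenic region, against 26 and 16 in Des+/+. Id1, an inhibitor of basic helix-loop-helix factors and a target of BMP signals, had 24 and 35 reads at one region and 21 and 31 at another, against 26 and 27 and 20 and 17 in Des+/+. Fgfr3, a growth factor receptor, had 17 and 32 reads, against 30 and 23. The sequences of the first pair are shown for their high ratios at 1 place, chr7:100674745-100675044 within a swim peak at chr7:100674099-100675866 and chr8:11323026-11323325 within a swim peak at chr8:11322886-11323864.
Plekhb1: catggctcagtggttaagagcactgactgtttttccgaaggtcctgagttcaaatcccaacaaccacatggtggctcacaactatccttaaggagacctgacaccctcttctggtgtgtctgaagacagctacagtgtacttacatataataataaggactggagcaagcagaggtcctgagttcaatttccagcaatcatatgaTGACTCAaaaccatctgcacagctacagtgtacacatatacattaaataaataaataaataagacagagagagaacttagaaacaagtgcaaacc
Col4a1: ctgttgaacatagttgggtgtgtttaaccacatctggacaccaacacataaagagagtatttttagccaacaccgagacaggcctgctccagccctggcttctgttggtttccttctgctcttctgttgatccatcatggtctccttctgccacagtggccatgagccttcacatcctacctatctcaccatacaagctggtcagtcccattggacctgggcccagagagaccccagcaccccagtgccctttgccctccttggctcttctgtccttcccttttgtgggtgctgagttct
The Plekhb1 sequence has an AP-1 match, in capitals, and the Col4a1 sequence none of the motifs searched. Some stretches of the Plekhb1 sequence recur within it, and the AP-1 match lies between later copies. Repeat masking is not shown in the printed sequences, and whether reads at this place can be placed with certainty was not tested.

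Clock genes were among the called regions in both directions. All 16 clock genes with a Des-/- peak had a swim peak, and 29 of 39 basal peaks had a partner (74.4%, against 55.2% for all genes). Des+/+ was alike, with 33 of 43 (76.7%) and 1 of 16 genes without a swim peak. The Des-/- clock peaks were high, with a median of 31 reads against 23 for all genes. At 21 to 30 reads 5 of 8 had a partner (62.5%), against 59.0% of all such peaks. Per2, which represses the clock, had 75 reads in Des-/- basal and 92 in swim (1.62 times the median, 1.18 to 2.23), and 53 and 62 in Des+/+ (1.58 times). Its promoter was higher relative to all regions in both genotypes. Cry1, a partner of the Per proteins, had 34 and 45 reads in Des-/-, with an input of 10 in swim, and 35 and 22 in Des+/+. Cry2 had 45 and 16 reads at a peak inside the gene (0.47 times, 0.248 to 0.848), against 41 and 25. The same gene also had a swim-only peak with an input under 10 in Des-/-. Per1 had 103 and 91 reads and Nr1d1 84 and 57, both within 1.5-fold of the median. Time of day was not given in the sources used here, and its part was not tested. The Cry2 sequence, chr2:92423411-92423710, is shown as the clock region called lower.
Cry2: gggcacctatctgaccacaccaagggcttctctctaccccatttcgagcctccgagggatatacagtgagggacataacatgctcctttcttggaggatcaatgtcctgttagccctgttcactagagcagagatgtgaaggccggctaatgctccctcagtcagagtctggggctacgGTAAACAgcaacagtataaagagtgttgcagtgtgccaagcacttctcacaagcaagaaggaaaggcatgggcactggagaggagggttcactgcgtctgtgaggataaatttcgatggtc
It holds a forkhead match (TGTTTAC or GTAAACA). These letters occurred in 5.16% of basal peaks outside promoters with a swim partner and 3.87% of those without.

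Several heat shock genes stood below the median after swimming in Des-/-. Hspa1b, the inducible HSP70, had 86 reads in Des-/- basal and 36 in swim (0.554 times the median, 0.364 to 0.826), against 65 and 34 in Des+/+ (0.706 times). Dnajb1, the HSP40 partner of HSP70, had 97 and 42 reads in a region shared with Tecr (0.573 times), against 82 and 46 (0.757 times). Stip1, which links HSP70 to HSP90, and Hspd1, the mitochondrial HSP60, each had 70 and 33 reads, against 54 and 34 and 62 and 40. Hspa8, the constitutive HSP70, had 128 and 92 reads and stood at the median. Of 22 heat shock and chaperone genes with a peak in both Des-/- lists, 7 were lower and 1 higher by the 1.5-fold rule, with a median of 0.872 times that of all genes, where 5.40% and 4.70% of all genes were. With no input limit 3 were lower. In Des+/+ 0 of 26 were lower and 1 higher, with a median of 0.98 times. The Hspa1b sequence, chr17:34959408-34959707, upstream of the start and shown as a stress promoter below the median, has no match to the motifs searched, and no match says only that these letters are not in this window. Hspa1b has a near-identical neighbour, Hspa1a, so its reads are uncertain.
Hspa1b: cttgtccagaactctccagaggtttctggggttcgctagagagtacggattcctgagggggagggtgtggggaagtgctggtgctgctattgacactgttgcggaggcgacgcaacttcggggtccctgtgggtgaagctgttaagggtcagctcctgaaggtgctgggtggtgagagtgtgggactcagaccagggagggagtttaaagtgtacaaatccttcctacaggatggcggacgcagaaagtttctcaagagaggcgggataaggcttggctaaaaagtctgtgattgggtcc

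Immediate early genes, which react to stimuli within minutes, were mostly within 1.5-fold of the median. Of 25 with a peak in both Des-/- lists, 0 were higher and 5 lower, where 4.70% and 5.40% of all genes were, and in Des+/+ 0 of 28 were called. Fos had 90 reads in basal and 72 in swim, Jun 92 and 55, and Junb 80 and 59. Egr1 had 97 and 67 reads, and the swim peak had too much input for the rule. Atf3, a stress factor, was lower, with 63 and 29 reads against 36 and 38 in Des+/+. At the promoter of Fosb a region had 123 and 58 reads (0.624 times the median), against 108 and 88 in Des+/+. With no limit on input, Atf3 was the list member called by gene height.

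Other low regions lay at promoters of genes with varied roles. Igtp, an interferon-induced GTPase, had 69 reads in Des-/- basal and 23 in swim, against 58 and 36 in Des+/+. Chchd2, a mitochondrial protein, had 92 and 37 reads, against 57 and 31. Bmpr1a, a BMP receptor, had 61 and 25 reads, against 56 and 36. Zfp942 and Ptar1 had 54 and 16 and 47 and 15 reads. Cwc22, a splicing factor in a segment with near-identical copies, had 171 and 49 reads and 49 and 36 in Des+/+, so its reads are uncertain.

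Notch and Hippo genes, which the study follows in regeneration, were near all genes in the share of peaks with a partner. For the Notch list it was 34 of 53 Des-/- basal peaks (64.2%), against 56.1% in Des+/+, and for the Hippo list 23 of 44 (52.3%), against 63.9%. Notch1, a receptor, had 42 reads in Des-/- basal and 30 in swim, and 43 and 22 in Des+/+. Notch4, the endothelial receptor, had 57 and 28 reads in Des-/- and 49 and 33 in Des+/+. Adam17, the protease that cuts Notch receptors, had 76 and 34 reads, against 53 and 43. Yap1, the effector of the Hippo pathway, had 70 and 30 reads at an intergenic region (0.567 times the median, 0.357 to 0.881), against 65 and 41. Adam17 and Yap1 were thus lower by the 1.5-fold rule in Des-/-, and Notch1 was within it. With no limit on input Notch4 was called lower too.

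In Des-/-, 3210 of 9944 genes with a basal peak (32.3%) had no swim peak, and in Des+/+ 2586 of 9424 (27.4%). Their basal heights had a median of 20 reads, against 37 reads for the genes with a swim peak. Of 4920 Des-/- genes with a basal height of 30 reads or more, 335 had no swim peak, against 136 of 4322 in Des+/+. Basal peaks without a partner were ranked by height among those with an input under 10. The highest included the promoters of Rsad1 with 60 reads, Mid1 with 54 and Pabpc1, a poly(A)-binding protein, with 53. Others were those of Thap1 with 52, Slc25a38, a mitochondrial glycine carrier, with 52, and Glo1, which detoxifies methylglyoxal, with 50. At the same places Des+/+ swim peaks were listed for Rsad1 (28 reads), Mid1 (16), Pabpc1 (27), Thap1 (26) and Slc25a38 (21), and none for Glo1. The highest of this ranking was 2610005L07Rik with 61 reads, in a repeated family on chromosome 8, with an input of 9. With no limit on input the highest basal peak without a partner had 160 reads.

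The largest differences in peak number were at genes with many peaks. Lncppara, a noncoding RNA gene beside Ppara, had 18 peaks in Des-/- basal and 5 in swim, against 14 and 10 in Des+/+. Smg6, an RNA decay factor, had 13 and 1, against 9 and 5. Dysf, the membrane repair protein dysferlin, had 13 and 5, against 10 and 9, and Trak1, a motor adaptor of mitochondria, had 21 and 9, against 14 and 13. The highest Des-/- peaks of Trak1 had 126 and 95 reads, those of Lncppara 64 and 49, and those of Smg6 28 in each list, so a high peak was still listed at these genes.

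Swim-only peaks with an input under 10 were found at 526 of 6403 genes (8.21%), and 146 of these genes had no basal peak. The peaks were low, with a median of 16 reads, and 86 of 635 reached 20 reads. Of the named lists, endothelial markers held such peaks at Cldn5, Eng, Ets1, Fli1, Flt1, Kdr, Pecam1, Sox17 and Sox18, which is 9 of 19 genes with a peak. The fatty acid list held them at 4 of 33 genes (Acsl1, Fabp4, Lpl and Pdk4), the PPAR, ERR and PGC-1 list at Klf15 and Rxra, and the oxidative phosphorylation list at Ndufb3 and Ndufb5 of 69 genes. The highest were 4930515G16Rik with 44 reads, 1700020D14Rik on chromosome Y with 40, and an intron of Vps45 with 36, at places with no Des+/+ peak. Cplane2 had 29 reads, and there Des+/+ had 23 and 15. The largest cluster was 37 peaks at Speer and Gm genes of chromosome 5, a multicopy family, where the basal lists held 1 peak without desmin and 0 with it, and the Des+/+ swim list 3. Reads of such copies cannot be placed with certainty, and depth at them was not tested. Outside promoters, 24.1% of the bases of swim-only peaks were masked as repeats, against 15.4% for basal peaks without a partner and 12.7% for those with one. Glucocorticoid receptor core letters (ACANNNTGT, its own reverse complement) occurred in 13.9% of swim-only peaks outside promoters (10.8 to 17.7), in 8.98% of basal-only peaks (8.01 to 10.1) and in 10.5% of those with a partner (9.15 to 12). It was 1 of 12 motifs searched. Swim-only peaks include copies of a multicopy family, which the interval counts as separate. Their summits outside promoters had a median of 46.7% G and C, against 49.3% and 50.7% in the same order. The part of copies and composition was not tested.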

How the data were processed

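H3K27Ac chromatin immunoprecipitation and its input were sequenced once for each genotype and condition. Per the labels and the study's methods, single-end reads were aligned by the authors to GRCm38 (mm10) with Bowtie2 2.4.4, handled with SAMtools 1.13, called into peaks against the input with the authors' own scripts, and annotated with ChIPseeker 1.36.0. The deposited height and input height of a peak are a coverage signal in reads, given by the authors as whole numbers with no stated scaling for depth. The deposited fold is the ratio of height plus 1 to input plus 1 (checked in 100% of peaks), the deposited p-value is the Poisson probability of the height given the input, and the deposited distance to the nearest start is a score in bp. Listed peaks had a height of at least 15 and a false discovery rate of at most 0.001. The study's methods state one approximate read number for all samples; totals for single libraries were not given in the sources used here, so depth was seen through the heights.

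All values were computed with Python 3.11.15, numpy 2.4.6, pandas 2.3.3 and scipy 1.17.1, and figures were drawn with matplotlib 3.10.9. Peaks overlapping by 1 bp or more were common. Gene heights used peaks with an input under 10 and genes with such a peak in both lists, unless said otherwise. Merged regions had no limit on input. A gene or region was higher or lower if its ratio was 1.5-fold above or below the median ratio. Shares have Wilson intervals and height ratios exact binomial intervals, all 95% and covering counting error only, since reads are not independent molecules. With 1 library a group no test was run. The scripts were tested on simulated data. Named genes were the 12 higher and 12 lower genes whose interval lay farthest from the median, and the members of 30 gene lists (777 genes, of which 637 had a Des-/- peak). The members and lists were chosen with earlier results of these data known. The value at the same place is that of the merged region that holds a gene's highest peak.

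Sequences are from RefSeq GRCm38.p6. All Des-/- basal peaks lay within its chromosome lengths, and 99.2% of the deposited nearest transcripts had the coordinates of a GENCODE vM21 transcript. The 300 bases printed lie in the peak and were moved off annotated exons where needed. The 12 motifs searched were read on both strands in the 300 bases at each summit. Alternatives were another overlap, height, input, fold, false discovery rate and summary of a gene, equal numbers of peaks, and promoter peaks only. The 4 lamin A/C lists were not used here.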

Additional observations from a re-analysis of the deposited data

Results flagged for a closer look

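The height ratio of genes of the contractile apparatus, relative to the median of all genes and with no limit on input, lay below 1 in Des-/- and above 1 in Des+/+. The median was 0.84 in Des-/- for the thick filament and titin list, 0.887 against 1.25 in Des+/+ for the Z-disc list, and 0.872 against 1.2 for the contractile and cardiomyocyte genes together. These lists share genes, so they are not 3 separate results. Each genotype and condition had 1 library, and the difference between the genotypes was not tested.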

How the results depend on the processing

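No paired analysis was possible because each genotype and condition had 1 library, and for the same reason no replicate could be left out. The share of Des-/- basal peaks without a swim partner, 44.8%, was 45.8% with an overlap of at least 50% of the shorter peak, 49.9% with an input under 10 in both lists, 46.7% with heights of at least 30 in both lists, 7.28% when basal peaks of at least 30 were set against all swim peaks, 24.5% with equal numbers of the highest peaks, 58.5% with a false discovery rate under 1e-06 and 37.9% for promoter peaks. The share of swim peaks without a basal partner, 6.28%, was 6.87%, 6.78%, 3.35%, 0.663% and 17% under the first 5 of these and 3.25% for promoter peaks. The median gene ratio, 0.732, was 0.681 with summed heights, 0.632 with the input subtracted, 0.75 over overlapping pairs, 0.697 for genes of mean height 30 or more and 0.756 over common regions. The 287 higher genes numbered 33 at 2-fold, 687 with summed heights, 498 with the input subtracted and 93 at a mean height of 30 or more. The 330 lower genes numbered 116, 1007, 520 and 207 in the same order, and 202 with no limit on input. Genes with a swim-only peak numbered 71 with heights of at least 20 and 240 for promoter peaks, and genes with no swim peak 1622 with heights of at least 20. With equal numbers of the highest peaks, 61.8% of contractile and 96.4% of endothelial basal peaks had a swim partner. Values at the same place, over common regions and of these lists were chosen after seeing the data. Relative to the median at the same place, Tcta (0.978), Cdc26 (0.953) and Nfib (0.973) turned from higher to lower. With no limit on input and at the same place, Mir23a (1.07 and 1.04), Zc3h4 (1.05 and 1.03), Myom1 (1.08 and 1.06), Dnajb5 (1.06 and 1.03) and Csnk1d (1.27 and 1.24) turned from lower to higher, since a peak with more input was then read. Low heights limit the rest, since a peak under 15 reads is not listed.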

Other observations

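Sex-linked genes were read as a check of the pooled animals. Ddx3y, on chromosome Y, had a promoter peak of 16 reads in Des-/- basal and 23 in swim, and of 23 and 20 in Des+/+. Eif2s3y had 18 reads in Des-/- swim and 16 in Des+/+ basal, and no peak in the other lists. Xist, which silences the X chromosome of females, had 17 reads in Des-/- basal only. The sex of the mice was not used here.

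Common regions of Des-/- were narrower after swimming, with a median of 945 bp against 1263 bp in basal, and the median of the ratio of widths was 0.826. In Des+/+ it was 0.839. Mean input at Des-/- common regions was 2.95 reads in basal and 5.75 in swim, against 3.14 and 3.16 in Des+/+. Over Des-/- common regions of mean height 30 or more, the median ratio relative to all regions was 0.992 where the summit had under 50% G and C (270 regions) and 0.924 where it had 70% or more (1745 regions), and in Des+/+ it was 0.978 and 0.909.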
